A study of Homo sapiens with 9 samples.

Results

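Genes of lung lineage identity were followed in the human H358 line, derived from a non-small cell carcinoma of the lung, with and without either ATPase of the SWI/SNF chromatin remodelling complex. The 8 genes, out of 58237 in the annotation used, were listed by name: the transcription factors NKX2-1, FOXA1, FOXA2 and GATA6, the homeodomain protein HOPX, the gene SFTA3 next to NKX2-1, and ABCA3 and SFTPB, which act in the surfactant of alveolar type 2 cells. RNA-seq of total RNA was carried out on 3 groups of 3 libraries from cultures kept in RPMI with fetal bovine serum. The groups were parental H358, H358 in which SMARCA4 (BRG1) was knocked out by CRISPR, and H358 in which SMARCA2 (BRM) was. The parental line was the only control, and the sources used here do not give whether a knockout line was a clone or a pool, or whether the replicates were separate cultures. The p-values therefore measure the spread between these libraries, which may be technical.

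NKX2-1 is a homeodomain transcription factor that marks the lung and thyroid fields of the foregut endoderm and stays on in alveolar and airway epithelium, where it drives surfactant genes. FOXA1 and FOXA2 are forkhead pioneer factors that can bind their sites in closed chromatin and prepare endodermal genes for other factors, and GATA6 is a zinc-finger factor of the same endoderm that acts with them. BRG1 and BRM are alternative motors of SWI/SNF, which slides and ejects nucleosomes and so opens such sites.

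The genes lie on 6 chromosomes, but 3 of them share a stretch of chromosome 14 (hg38, GENCODE 29). NKX2-1 (ENSG00000136352.17) spans chr14:36516392-36521149, SFTA3 (ENSG00000229415.9) chr14:36473288-36513829 and FOXA1 (ENSG00000129514.5) chr14:37589984-37596059, all on the minus strand. The others are FOXA2 (ENSG00000125798.14, chr20:22581005-22585455, minus), GATA6 (ENSG00000141448.8, chr18:22169443-22202528, plus), HOPX (ENSG00000171476.21, chr4:56647988-56681899, minus), ABCA3 (ENSG00000167972.13, chr16:2275881-2340746, minus) and SFTPB (ENSG00000168878.16, chr2:85657314-85668741, minus).

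Promoter stretches are shown because most of these genes hold letters that forkhead or NKX2 factors are known to bind in a window before a start that RefSeq lists. RefSeq sequences (GRCh38.p14) matched 7 of the 8 genes, with 10 different windows of 250 bases before an annotated start. They were searched on both strands for the forkhead word TGTTTAC, its variant TGTTTAT, its variant TGTTTGC and its variant TGTTTGT. The NKX2-1 words searched were CAAGTG and also CTCAAG, and the GATA word was AGATAA. The forkhead letters stood in 6 of the 10 windows, the NKX2-1 letters in 3 and the GATA letters in 1. Of the 34943 windows of the same length in the RefSeq table, 13.3%, 18.3% and 9.19% held them. Most windows also overlap transcripts of GENCODE 29 that begin further upstream, in some cases over a few bases only. Of the 10 windows, 9 overlap an annotated exon, 8 of them a UTR and 2 a coding sequence. For FOXA1 the whole window of 250 bases is given, chr14:37595250-37595499 on the minus strand, where an exon of the processed transcript FOXA1-205 is annotated. For the others a stretch of 30 bases is given, and the capitals mark the matches.
FOXA1 upstream window: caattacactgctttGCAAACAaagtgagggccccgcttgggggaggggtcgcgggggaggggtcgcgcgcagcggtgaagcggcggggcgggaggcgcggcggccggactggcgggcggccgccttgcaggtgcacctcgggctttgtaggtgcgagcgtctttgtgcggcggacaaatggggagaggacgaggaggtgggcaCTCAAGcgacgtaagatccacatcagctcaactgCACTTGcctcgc
NKX2-1 and SFTA3, start that RefSeq lists for both: tgaCAAGTGaaacttaaaggTGTTTACctt
NKX2-1, upstream start: ccagtgctgTGTTTGCtcggccgggggtgg
GATA6: tcggcgagcgcTGTTTGTttagggctcggt
HOPX, upstream start: tatttaagcaggctggcatcaGCAAACAca
SFTPB, downstream start: tcagagcaaagACAAACActgaggtcgctg

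These stretches lie at chr14:36519677-36519706 and chr14:36520453-36520482 for NKX2-1, chr18:22169463-22169492 for GATA6, chr4:56681297-56681326 for HOPX and chr2:85668264-85668293 for SFTPB, on the strand of each gene. The GATA6 stretch comes after the start of GATA6-201, the window of the NKX2-1 and SFTA3 start overlaps coding sequence of NKX2-1-205, and the SFTPB window overlaps coding sequence of SFTPB-202. The window of FOXA1 held a forkhead match and 2 NKX2-1 matches. The window at the start that NKX2-1 shares with SFTA3 held 1 match of each kind and the GATA letters on its opposite strand. The window of ABCA3 held none of the letters searched. A match describes the letters only, and no binding was measured.

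Each library held 31969961 to 40679073 estimated reads. SMARCA4 stood at 22.9 ± 1.51 counts per 1000000 reads (CPM, scaled by TMM factors; mean ± SD, n = 3) in the BRG1 knockout against 224 ± 17.4 in parental cells, and SMARCA2 at 10.6 ± 1.34 CPM in the BRM knockout against 54.3 ± 4.47. Both edited genes were thus lowest in the libraries labelled with their knockout. Parental replicate 1 and BRG1 knockout replicate 3 stood apart from their groups. BRM knockout replicate 2 also differed more from replicates 1 and 3 (chi-square per degree of freedom 71.6 and 49.8) than these did from each other (24.2). Calls of the 8 genes that change without one of these libraries are given with the results. Of the 8 genes, 7 passed the filter on low counts and were tested. SFTPB did not pass it.

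Against parental cells, 6 of the 7 tested genes fell in the BRG1 knockout and none rose, where 43.5% of the 18205 genes tested were called in either direction and 21.9% were called lower (edgeR quasi-likelihood test, Benjamini-Hochberg adjusted p under 0.05). In the BRM knockout 5 of the 7 rose and none fell, where 37.4% of all genes were called and 21.0% were called higher. The median log2 fold change of the 7 genes was -4.01 in the BRG1 knockout and 1.55 in the BRM knockout, and that of all genes tested was -0.01 and 0.09. Set directly against the BRM knockout, 6 of the 7 were lower in the BRG1 knockout, with a median of -5.09 and a background of 45.3% called and 23.8% called lower. There 6 of the 7 had no overlap between the groups, as had 55.1% of all genes. The libraries of the groups did not overlap for 6 of the 7 genes in the BRG1 knockout and for 5 in the BRM knockout, which was so for 53.2% and 58.1% of all genes. These comparisons share their parental libraries. In bulk RNA, fewer cells of a type and less RNA per cell cannot be told apart.

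**Figure D1:**
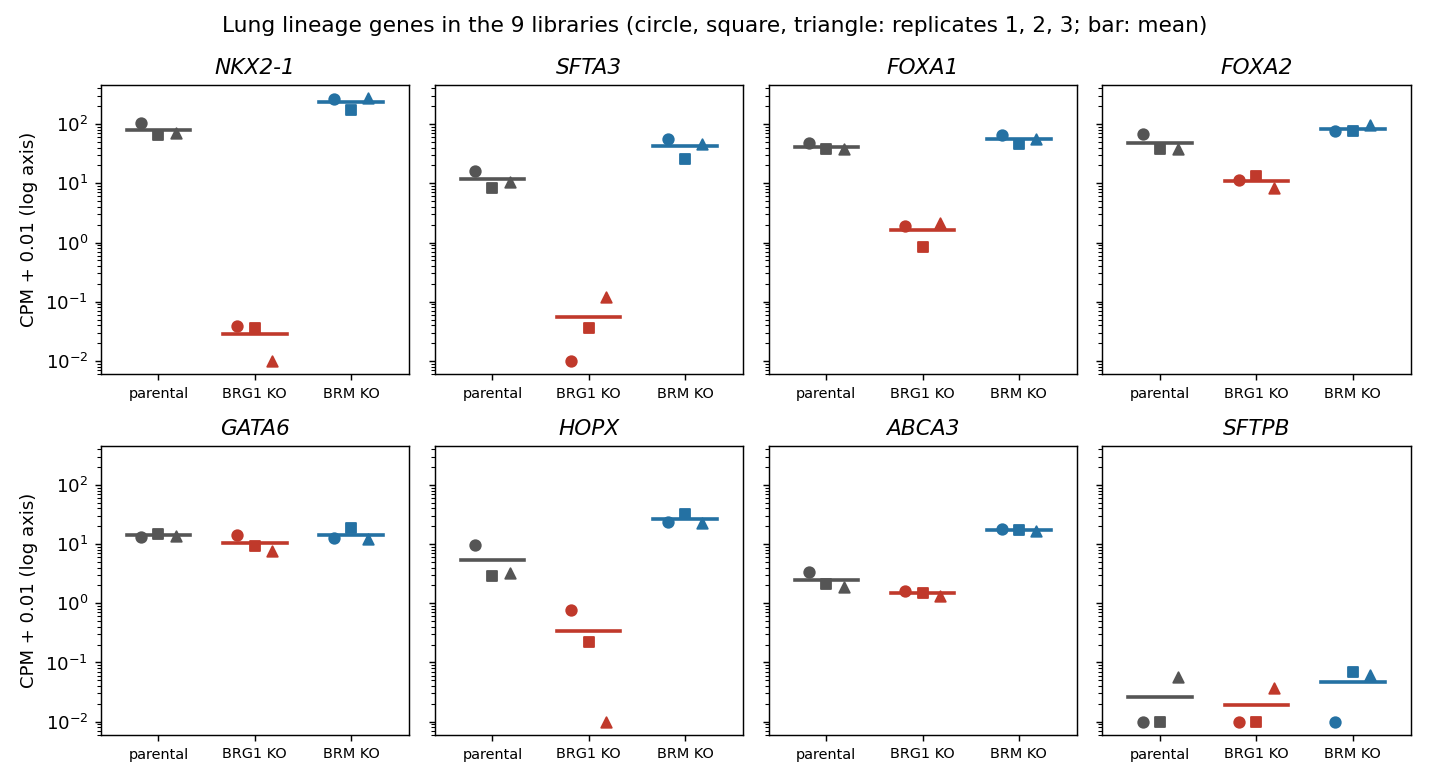
Levels of the 8 genes in each of the 9 libraries, as TMM-scaled CPM plus 0.01 on a log axis, with a bar at the mean of each group; points at the foot of a panel are libraries with 0 reads. NKX2-1 and SFTA3 drop by orders of magnitude in the BRG1 knockout and lie above parental cells in the BRM knockout, whereas the 3 groups of GATA6 overlap.

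NKX2-1, the factor that defines the lung field, stood at 105, 65.4 and 71.9 CPM in parental replicates 1 to 3. The BRG1 knockout libraries held 1, 1 and 0 reads of it, or 0.0284, 0.0263 and 0 CPM, and the BRM knockout libraries stood at 263, 170.3 and 275 CPM. The 3 groups did not overlap. From parental to BRG1 knockout cells the level went down by a ratio of 4334 from 8943 and 2 reads, with a 95% counting interval of 1199 to 35791 (exact binomial, counting error only; edgeR adjusted p = 4.1e-07). In a single BRG1 knockout library, 3 reads would have been 0.0789 to 0.0853 CPM, which is the level below which this depth tells nothing about NKX2-1. With BRM knocked out it rose 2.92-fold, a log2 fold change of 1.55 ± 0.24 (SE, n = 3 per group; edgeR adjusted p = 8.1e-04). Between the knockouts the ratio was 13085, with an interval of 3622 to 108054.

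SFTA3 lies just downstream of NKX2-1 on the same strand and codes for a surfactant-associated protein. Parental libraries held 15.97, 8.32 and 10.5 CPM of it, the BRG1 knockout libraries 0, 0.0263 and 0.111 CPM, and the BRM knockout libraries 56.6, 25.6 and 45.9 CPM. As for NKX2-1, no library of one group lay within the range of another. Its fall in the BRG1 knockout was 7.88 ± 0.61 in log2 units (edgeR adjusted p = 6.8e-06), a value that rests on 5 reads in the 3 knockout libraries and was -9.47 without BRG1 knockout replicate 3. All 5 were assigned to retained-intron transcripts, so that with protein-coding transcripts only the group had 0 reads. The fitted value was then -10.68 (edgeR adjusted p = 7.1e-05) and depends on the prior count. The BRM knockout had a rise of 1.88 ± 0.36 (edgeR adjusted p = 0.0028), or 3.68-fold.

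The antisense gene NKX2-1-AS1 overlaps NKX2-1 on the opposite strand. It had 126 reads in parental cells, 0 in the BRG1 knockout and 210 in the BRM knockout. Its level in the BRG1 knockout was at least 40.7-fold lower than in parental cells (3 reads over the group as the floor; edgeR adjusted p = 2.2e-04). Its rise in the BRM knockout did not pass the test (log2 0.75 ± 0.47, edgeR adjusted p = 0.24). Whether the counting used strand is not known from the labels or files, so reads of NKX2-1 and of its antisense partner cannot be told apart.

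The main NKX2-1 transcripts had the 3 groups in the same order. In TPM, transcripts per 1000000 and thus a unit per length, NKX2-1-201 had a mean of 21.6 ± 5.29 in parental cells, 0.00603 ± 0.0105 in the BRG1 knockout and 52.5 ± 12.7 in the BRM knockout. NKX2-1-202, which starts further downstream, had 19.05 ± 2.95, 0 and 58.8 ± 21.6 TPM, and NKX2-1-204 had 25.4 ± 7.72, 0.00833 ± 0.0144 and 71.02 ± 13.8 TPM (SD, n = 3). With BRG1 knocked out all 3 were at or near 0, and in the BRM knockout each lay above its parental libraries. The split of reads among transcripts of 1 gene is an estimate made by the quantifier.

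FOXA1 went down in all 3 BRG1 knockout libraries, though less far than NKX2-1. Its level was 47.4, 38.5 and 38.4 CPM in parental cells and 1.88, 0.842 and 2.16 CPM in the BRG1 knockout. The lowest parental library was thus many times above the highest BRG1 knockout library, and the fall was 4.67 ± 0.31 on the log2 scale, or 25.5-fold (edgeR adjusted p = 2.6e-06). The BRM knockout libraries held 64.2, 46.2 and 55.2 CPM, with 1 library below the highest parental one. That difference of 0.41 ± 0.26 did not pass (edgeR adjusted p = 0.23).

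FOXA2, on chromosome 20, gave a fall of a different size. Parental libraries held 67.3, 37.2 and 37.6 CPM and the BRG1 knockout libraries 11.6, 13.3 and 8.44 CPM, without overlap. The level fell by 2.09 ± 0.26 on the log2 scale, or 4.27-fold (edgeR adjusted p = 1.3e-04). The BRM knockout libraries, at 76.3, 75.3 and 96.7 CPM, lay above all parental ones, and the rise of 0.81 ± 0.25 passed (edgeR adjusted p = 0.027). This rise is a weak call: it no longer passed without parental replicate 2 or without parental replicate 3 (log2 0.66 in both, edgeR adjusted p = 0.11), and it was also lost without BRG1 knockout replicate 1, BRM knockout replicate 1 or BRM knockout replicate 3 (adjusted p = 0.054, 0.066 and 0.10). AL121722.1 overlaps FOXA2 on the same strand and reached at most 2.66 CPM.

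For GATA6, the zinc-finger factor of the endoderm, no comparison passed the test. Its 9 libraries ran from 7.58 to 18.3 CPM, with 13.3, 15.0 and 13.9 CPM in parental cells, 14.3, 9.18 and 7.58 CPM in the BRG1 knockout and 12.4, 18.3 and 12.0 CPM in the BRM knockout. The groups overlapped in every comparison. The log2 difference from parental cells was -0.44 ± 0.26 in the BRG1 knockout (edgeR adjusted p = 0.19) and 0.02 ± 0.25 in the BRM knockout (edgeR adjusted p = 0.96). Without BRG1 knockout replicate 1, the highest of that group, the first became -0.81 and passed (edgeR adjusted p = 0.027).

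HOPX is an atypical homeodomain protein without DNA binding of its own, found in alveolar type 1 cells. It was low and uneven in parental cells, at 9.80, 2.87 and 3.20 CPM, with replicate 1 well above the other 2. The BRG1 knockout libraries held 0.767, 0.210 and 0 CPM, and the BRM knockout libraries 24.0, 32.1 and 22.9 CPM. The 3 groups did not overlap. The fall in the BRG1 knockout was 4.01 ± 0.82 on the log2 scale (edgeR adjusted p = 0.0033), -5.62 without BRG1 knockout replicate 1 and -2.73 without parental replicate 1 and BRG1 knockout replicate 3. The rise in the BRM knockout was 2.32 ± 0.67 (edgeR adjusted p = 0.022) and 3.11 without parental replicate 1. It was lost without parental replicate 2, parental replicate 3 or any 1 of the BRM knockout libraries (edgeR adjusted p from 0.054 to 0.097).

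HOPX has 2 clusters of starts and 1 lone start in the annotation, and the forkhead letters shown above lie among the starts of the upstream cluster, downstream of the start of HOPX-202, whose UTR the window overlaps. The 8 transcripts of the upstream cluster summed to 8.98, 2.20 and 3.43 TPM in parental cells, 0.0437, 0.180 and 0 TPM in the BRG1 knockout and 17.7, 24.97 and 15.4 TPM in the BRM knockout. The 6 transcripts of the internal cluster summed to 3.08, 1.66 and 0 TPM in parental cells, 1.21, 0 and 0 TPM in the BRG1 knockout and 12.8, 15.05 and 14.5 TPM in the BRM knockout. Both clusters were thus highest in the BRM knockout. Between parental and BRG1 knockout cells the upstream cluster separated the groups and the internal cluster did not.

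**Figure D2:**
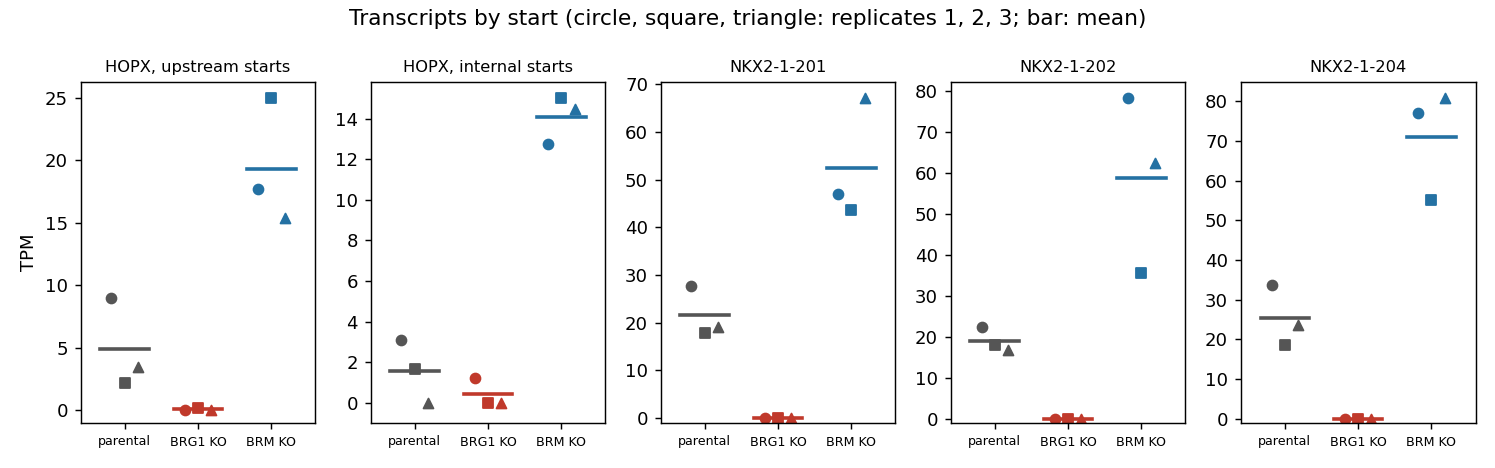
TPM of the HOPX transcripts grouped by start and of 3 NKX2-1 transcripts in each library, with a bar at the mean of each group and a separate linear axis in each panel. All panels are highest in the BRM knockout, and the 3 NKX2-1 transcripts lie near 0 in the BRG1 knockout.

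ABCA3, the lipid transporter that loads surfactant into lamellar bodies, showed the reverse balance, with the larger change in the BRM knockout. Parental cells held 3.35, 2.14 and 1.88 CPM and the BRM knockout 17.6, 16.98 and 16.6 CPM, with little spread. The rise was 2.80 ± 0.25 on the log2 scale, or 6.96-fold (edgeR adjusted p = 9.2e-05), and 2.00 when the average transcript length was taken into account (edgeR adjusted p = 8.3e-04). The BRG1 knockout libraries held 1.62, 1.47 and 1.33 CPM, just below the lowest parental library. That fall of 0.73 ± 0.25 passed narrowly (edgeR adjusted p = 0.036) and did not pass without parental replicate 1 (log2 -0.45, edgeR adjusted p = 0.13), without BRM knockout replicate 2 or 3 (adjusted p = 0.050 and 0.059) or in a fit of the 2 groups alone (adjusted p = 0.11).

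SFTPB, the surfactant protein that spreads lipid at the air surface and a textbook target of NKX2-1, was close to absent. It had 2 reads in the parental libraries together, 1 in the BRG1 knockout and 4 in the BRM knockout, and no library exceeded 2 reads. At this depth a difference between the groups was not detectable. The libraries with the most NKX2-1 thus had no more than a trace of SFTPB.

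**Figure D3:**
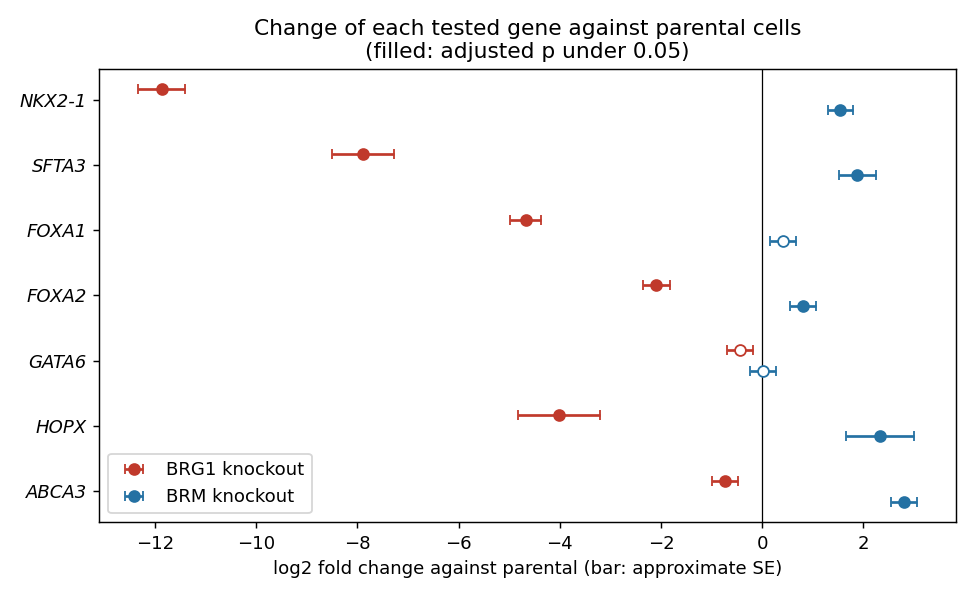
Log2 fold change against parental cells of the 7 genes tested, with bars of 1 approximate standard error; filled points passed an adjusted p of 0.05. In the BRG1 knockout the points run from -11.86 for NKX2-1 to -0.44 for GATA6, and in the BRM knockout from 0.02 for GATA6 to 2.80 for ABCA3. The BRG1 value of NKX2-1 comes from 2 reads and depends on the prior count of the fit.

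On the per-length scale the order of the levels changed with the genotype. In parental cells NKX2-1 led with 69.3 ± 17.0 TPM (SD, n = 3), followed by FOXA2 with 30.8 ± 10.2, FOXA1 with 24.3 ± 2.57 and SFTA3 with 19.01 ± 6.46. The libraries of FOXA2 and FOXA1 overlapped, as did those of FOXA1 and SFTA3. GATA6 with 7.05 ± 0.902 and HOPX with 6.45 ± 4.86 TPM also overlapped, and ABCA3 lay below them at 0.955 ± 0.0751 TPM.

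With BRG1 lost FOXA2 with 6.30 ± 0.620 TPM and GATA6 with 4.21 ± 1.50 TPM were the highest of the 8, and their libraries overlapped. FOXA1, HOPX and ABCA3 followed at 0.920 ± 0.452, 0.478 ± 0.677 and 0.424 ± 0.190 TPM and could not be ranked among themselves. NKX2-1, at 0.0144 ± 0.0129 TPM, had gone from the first place to a level near that of SFTPB. With BRM lost NKX2-1 led again with 194.5 ± 42.4 TPM, ahead of SFTA3 with 73.2 ± 25.9 and FOXA2 with 52.1 ± 7.02, which overlapped. HOPX with 33.5 ± 5.72 TPM and FOXA1 with 31.7 ± 6.08 TPM overlapped too, above GATA6 at 6.93 ± 1.87 and ABCA3 at 3.83 ± 0.0607 TPM.

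The genes around NKX2-1 and FOXA1 on chromosome 14 fell with them. In a window that reaches 1000000 bases beyond NKX2-1 on one side and beyond FOXA1 on the other (chr14:35516392-38596059), 18 of 53 annotated genes were tested. In the BRG1 knockout 15 of the 18 fell and none rose, and 12 of 15 fell when NKX2-1, SFTA3 and FOXA1 were set aside. These 12 include genes that overlap those 3 and whose reads may not be told apart from theirs: without NKX2-1-AS1, AL132857.1, AL132857.2 and TTC6 as well, 9 of 11 fell, with a median log2 fold change of -1.14. Over the other 590 tested genes of chromosome 14, 18.6% fell and 22.4% rose. The median log2 fold change of the 18 was -2.34 with the 5 genes that had 0 reads in the BRG1 knockout put at their bound of 3 reads, against 0.04 for the rest of the chromosome. In the BRM knockout 8 of the 18 rose and none fell, with a median of 0.90, against 22.5% rising, 19.0% falling and a median of 0.09 in the rest. The noncoding genes AL133304.2, AL162511.1, AL132857.1 and AL132857.2 reached the filter on low counts only with the BRM knockout libraries, where they were high, so these 18 do not describe the window evenly. Without those 4 genes, 6 of 14 rose in the BRM knockout (median 0.75) and 12 of 14 fell in the BRG1 knockout (median -2.68), and without the 3 lung genes and all genes overlapping them too, 4 of 9 rose and 7 of 9 fell. The alternative settings tested 11 to 18 of the window genes. Of these, 11 to 16 fell in the BRG1 knockout and 4 to 10 rose in the BRM knockout, with none the other way.

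PAX9, a paired-box factor of the pharyngeal foregut, and NKX2-8, a homeodomain relative of NKX2-1, are the transcription factors nearest to NKX2-1 on the FOXA1 side. PAX9 went from 52.7 ± 16.6 CPM in parental cells to 5.33 ± 0.276 in the BRG1 knockout (log2 -3.31 ± 0.24, edgeR adjusted p = 4.0e-06) and to 139 ± 23.2 in the BRM knockout (1.40 ± 0.22, edgeR adjusted p = 8.1e-04). NKX2-8 went from 5.64 ± 2.27 to 0.335 ± 0.210 CPM in the BRG1 knockout (-4.05 ± 0.53, edgeR adjusted p = 1.6e-04) and stood at 5.42 ± 1.85 CPM in the BRM knockout, a difference of -0.06 that did not pass (edgeR adjusted p = 0.93). The 2 factors thus shared the fall, and a rise was called for PAX9 alone.

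Genes of the window that are not lung factors took part as well. MIPOL1 fell by 1.09 ± 0.24 in the BRG1 knockout (edgeR adjusted p = 0.0040) and rose by 1.06 ± 0.24 in the BRM knockout (edgeR adjusted p = 0.0055). SLC25A21, a mitochondrial carrier, changed by -2.05 ± 0.40 and 1.36 ± 0.37 (edgeR adjusted p = 0.0020 and 0.015), the latter lost without parental replicate 2, parental replicate 3 or BRM knockout replicate 2. TTC6, which overlaps FOXA1 on the opposite strand, fell by 4.10 ± 0.64 in the BRG1 knockout (edgeR adjusted p = 5.1e-04), and its BRM value of 1.06 ± 0.46 did not pass (edgeR adjusted p = 0.092).

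On the side of NKX2-1 away from FOXA1, beyond SFTA3, 3 more protein-coding genes were called lower in the BRG1 knockout. RALGAPA1, a subunit of a Ral GTPase-activating complex, fell by 1.14 ± 0.32 (edgeR adjusted p = 0.014), BRMS1L, a subunit of a histone deacetylase complex, by 0.58 ± 0.17 (edgeR adjusted p = 0.017), and MBIP by 0.39 ± 0.14 (edgeR adjusted p = 0.043). All 3 calls were lost with the average transcript length offset, that of BRMS1L also without parental replicate 3, and that of MBIP, with its rise of 0.46 ± 0.14 in the BRM knockout (edgeR adjusted p = 0.024), in 9 of 18 settings each. The noncoding genes AL133304.2, AL162511.1 and AL132857.1 had 0 reads in the BRG1 knockout and were called lower, from 0.118 ± 0.0313, 0.272 ± 0.0336 and 0.159 ± 0.152 CPM in parental cells. AL132857.2 had 0 reads there as well and did not pass (edgeR adjusted p = 0.052), and it and AL133304.2 were called higher in the BRM knockout (edgeR adjusted p = 0.018 and 0.028). The rise of AL132857.2 was lost without parental replicate 2, parental replicate 3, BRM knockout replicate 2 or BRM knockout replicate 3 (adjusted p up to 0.085). That of AL133304.2 was lost in 8 of 18 settings: with no filter, with the replicate block, with DESeq2, and without any 1 of the parental libraries, BRM knockout replicate 1 or BRM knockout replicate 3 (adjusted p up to 0.15). AL162311.3 and SLC25A21-AS1 did not pass in either comparison with parental cells.

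**Figure D4:**
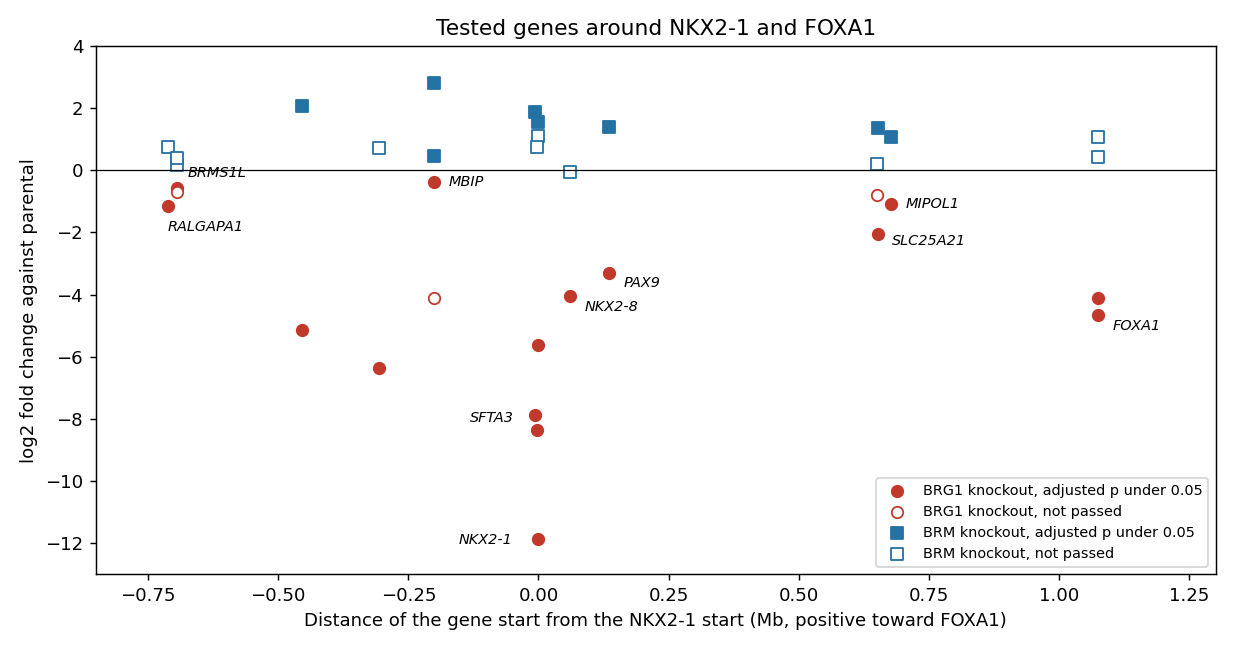
Log2 fold change of the 18 tested genes against the distance of their start from that of NKX2-1, in megabases, for the BRG1 knockout (circles) and the BRM knockout (squares); filled points passed an adjusted p of 0.05. No BRG1 circle lies above 0. Values of genes with 0 to 3 reads in the BRG1 knockout depend on the prior count of the fit.

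Further transcription factors of lung and foregut split in both directions. Of 25 listed, 18 were tested: 9 fell, 3 rose and 6 did not pass in the BRG1 knockout, with a median log2 fold change of -0.58, where 21.9% of all genes tested fell and 21.6% rose. KLF5, a Krüppel-like factor of airway and alveolar epithelium, fell from 73.2 ± 5.66 to 11.3 ± 1.85 CPM (log2 -2.69 ± 0.16, edgeR adjusted p = 1.6e-06). FOXJ1, the regulator of motile cilia, went from 2.15 ± 1.07 to 0.0983 ± 0.0982 CPM (-4.37 ± 0.66, edgeR adjusted p = 4.4e-04). ID2, NFIB and CEBPD were the 3 that rose. The 9 that fell include PAX9 and NKX2-8, which were also counted in the chromosome 14 window.

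With BRM knocked out 7 of these 18 factors rose, 1 fell and 10 did not pass, with a median of 0.55, where 21.0% of all genes rose and 16.4% fell. Without parental replicate 1 and BRG1 knockout replicate 3, 11 rose and 2 fell. FOXJ1 rose to 20.5 ± 8.94 CPM (3.27 ± 0.49, edgeR adjusted p = 7.5e-04), FOXP2, a forkhead factor of distal lung, from 1.71 ± 0.718 to 6.47 ± 0.725 CPM (1.93 ± 0.33, edgeR adjusted p = 0.0015), and MEIS1, a homeodomain cofactor, from 6.68 ± 0.794 to 14.4 ± 1.86 CPM (1.11 ± 0.26, edgeR adjusted p = 0.0073). PAX9 of the chromosome 14 window was also among the 7 that rose, and SOX9, a factor of distal lung progenitors, was the 1 that fell. Set directly against each other, the knockouts differed in 14 of the 18 factors, with 12 lower and 2 higher in the BRG1 knockout. Of all genes tested, 45.3% were called there, 23.8% lower and 21.6% higher.

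Genes of differentiated alveolar type 2 cells were called about as often as all genes in the BRG1 knockout. Of 16 listed, 9 were tested, and 1 rose, 3 fell and 5 did not pass in the BRG1 knockout (median -0.49), so that 4 of 9 were called, beside 43.5% of all genes. Of the same 9, 2 rose in the BRM knockout and 7 did not pass (median -0.16), beside 37.4% of all genes called there. CTSH, a lysosomal protease that processes surfactant protein, rose in the BRG1 knockout from 4.73 ± 1.36 to 18.2 ± 6.57 CPM (log2 1.94 ± 0.34, edgeR adjusted p = 9.5e-04). MUC1, an apical membrane mucin, fell there from 22.1 ± 8.80 to 6.21 ± 1.82 CPM (-1.83 ± 0.30, edgeR adjusted p = 6.2e-04). The phosphate transporter SLC34A2 fell from 41 reads in parental cells to 1. SLC34A2 reached the filter on low counts only with the parental libraries, where it was high. Its call therefore does not stand evenly beside the share of all genes. LAMP3, a lysosomal membrane protein, was called lower at the edge of the threshold, and its groups overlapped. It held 8.51, 2.53 and 2.48 CPM in parental replicates 1 to 3 and 2.84, 0.895 and 0.747 CPM in the BRG1 knockout. Over the alternative settings 2 to 3 genes of the list fell in the BRG1 knockout.

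LPCAT1, the acyltransferase that makes the dipalmitoyl lipid of surfactant, rose in the BRM knockout from 147 ± 44.3 to 867 ± 361 CPM (2.56 ± 0.30, edgeR adjusted p = 2.3e-04). NAPSA, an aspartic protease used with NKX2-1 as a marker of lung adenocarcinoma, rose there from 0.707 ± 0.311 to 2.58 ± 0.354 CPM (1.87 ± 0.51, edgeR adjusted p = 0.015), a call lost without parental replicate 2, without parental replicate 3 and with protein-coding transcripts only. The defining surfactant genes SFTPA1, SFTPA2, SFTPC and SFTPD had at most 10 reads in any group of 3 libraries. A library of H358 in any of the 3 genotypes therefore held no more than traces of these alveolar markers.

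Alveolar type 1 genes fell or did not pass in both knockouts. Of 12 listed, 9 were tested, with 4 lower in the BRG1 knockout (median -0.52) and 3 lower in the BRM knockout (median -0.27), beside 21.9% and 16.4% of all genes lower. RTKN2 fell in both, from 12.3 ± 2.60 CPM to 2.79 ± 0.763 in the BRG1 knockout (edgeR adjusted p = 4.7e-04) and 2.57 ± 1.03 in the BRM knockout (edgeR adjusted p = 6.1e-04). EMP2, a membrane protein, and GPRC5A, an orphan receptor of lung epithelium, fell in the BRG1 knockout by 1.94 ± 0.14 and 1.88 ± 0.19 on the log2 scale (edgeR adjusted p = 4.2e-06 and 2.9e-05). CAV1, the caveolar coat protein, fell in the BRM knockout from 398 ± 144 to 137 ± 28.9 CPM (-1.54 ± 0.27, edgeR adjusted p = 0.0017). CLIC5 was called lower in both knockouts by 1.59 ± 0.49 and 1.54 ± 0.49 (edgeR adjusted p = 0.022 and 0.029), and neither call was kept without parental replicate 1. The BRG1 call was also lost without BRG1 knockout replicate 2, and without parental replicate 1 and BRG1 knockout replicate 3. The BRM call was also lost without any 1 of the BRM knockout libraries. HOPX, which marks the same cells in lung tissue, rose in the BRM knockout, where no tested gene of the list was called higher (1 was without parental replicate 1 and BRG1 knockout replicate 3).

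Of 8 listed club cell genes only MUC5B, a gel-forming mucin of airway secretions, was tested. Parental libraries held 85.9, 31.6 and 42.04 CPM of it, BRG1 knockout libraries 0.909, 0.816 and 0.941 CPM and BRM knockout libraries 674.5, 539 and 669 CPM, so its groups were ordered as those of NKX2-1 were. The club cell secretoglobins SCGB1A1, SCGB3A1 and SCGB3A2 had at most 6 reads in a group.

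Genes of stomach, gut and liver, which neighbouring endoderm makes, were mostly too low to test. Of 24 listed, 6 were tested, and none was called higher in either knockout. In the BRG1 knockout 2 fell and 4 did not pass (median -0.17), and in the BRM knockout 1 fell and 5 did not pass (median -0.27). Both shares, over so few genes, stand beside 21.9% and 16.4% of all genes lower. HNF4G, a nuclear receptor of gut epithelium, fell from 10.4 ± 2.55 CPM to 1.38 ± 0.446 in the BRG1 knockout (log2 -2.90 ± 0.32, edgeR adjusted p = 5.3e-05) and to 2.95 ± 0.349 in the BRM knockout (-1.81 ± 0.30, edgeR adjusted p = 0.0012). The mucin gene MUC5AC was the other one that fell in the BRG1 knockout (edgeR adjusted p = 1.2e-04). It had 224 reads in parental cells, 0 in the BRG1 knockout and 303 in the BRM knockout. HNF4A, CDX1, CDX2, PDX1 and TFF1 had at most 4 reads in a group.

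General epithelial markers moved with the lung factors in the BRG1 knockout. The 6 markers EPCAM, CDH1, KRT8, KRT18, KRT19 and KRT7 summed to 6364 to 6432 CPM in parental libraries, 440.8 to 1298 CPM in the BRG1 knockout and 5736 to 6893 CPM in the BRM knockout, and none was at 0 reads. Of the 6, 5 fell in the BRG1 knockout, where 21.9% of all genes did, and none was called in the BRM knockout. KRT19 did not pass in the BRG1 knockout, with 123, 220 and 0.277 CPM in replicates 1 to 3. All 6 were lowest in replicate 3 of that group, CDH1 for example at 6.64 CPM against 78.7 and 86.05 in replicates 1 and 2. The 8 fibroblast markers summed to 32.3 to 63.4 CPM in parental, 396 to 1034 in BRG1 knockout and 82.6 to 127 in BRM knockout libraries. None was at 0 in a group. The highest sum owed most to COL3A1 in BRG1 knockout replicate 3, at 739 CPM against 84.5 and 109 in replicates 1 and 2. Of the 7 tested, 5 rose in the BRG1 knockout, where 21.6% of all genes did, and LUM and COL1A2 did not pass. THY1, among the 5, reached the filter on low counts only with the BRG1 knockout libraries, where it was high. Blood cell markers summed to at most 58.5 CPM in any library, and NKG7 was at 0 reads in all groups. The part of these markers in the changes of NKX2-1, FOXA1 and FOXA2 was not tested.

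Genes with the profile most like that of each factor were ranked by Pearson's r of log2 CPM over the 9 libraries, which is a description that the differences between the 3 groups dominate. For NKX2-1 they were SYK, a tyrosine kinase (r = 0.9991), KLHL13, an adaptor of a ubiquitin ligase (r = 0.999), and CEP170B (r = 0.9973). SYK stood at 31.0 ± 5.45 CPM in parental cells, 0 in the BRG1 knockout and 66.2 ± 11.4 in the BRM knockout. For FOXA1 the nearest were MANSC1, AZIN1 and MARK2 (r = 0.9955, 0.995 and 0.9943), and for FOXA2 they were ST6GALNAC1, PRKCH and TTC7A (r = 0.9943, 0.9942 and 0.993). For HOPX the list was led by WFDC2, a secreted whey acidic protein of airway epithelium (r = 0.995), ahead of LIPH and HSBP1L1 (r = 0.9943 and 0.9937). GATA6 had lower values, with OSBPL7, COG2 and APOL2 at r = 0.9461, 0.9355 and 0.9073.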

How the data were processed

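RNA-seq libraries of H358 cells (3 genotypes, 3 libraries each) were analysed from the files the authors deposited. Estimated counts per transcript and TPM values were made by the authors with Salmon on hg38. The units come per the file headers, the tool and build per the submitters' processing notes, which also name DESeq2. Version, annotation, library type and strand setting: not given in the sources used here. Deposited transcript lengths were used for a length offset only.

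Of 203835 transcripts, 203746 were matched to GENCODE 29 genes, and the other 89 took up to 0.0193% of the reads in a library. Estimated counts were summed per gene, rounded, filtered with filterByExpr by group (18205 of 58237 genes kept), scaled by TMM and tested with edgeR 4.0.16 (R 4.3.3; glmQLFit robust, quasi-likelihood F test, two-sided, all 9 libraries in 1 fit, 6 residual degrees of freedom, common biological coefficient of variation 0.253). P-values were adjusted by Benjamini and Hochberg's method across the 18205 genes and called under 0.05. The approximate standard error (SE) of a log2 fold change is its size divided by the square root of F, and is not reliable where reads are few. Against 0 reads the floor is 3 reads over the group. The fit was tested on simulated data.

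The named genes are the 8 members. To these come up to 4 called genes per lung, foregut and gut list in each comparison with parental cells, by size of change, with 1 log2 CPM or more as the mean of the higher group, then every tested gene of the chromosome 14 window and the 3 protein-coding genes most like each factor. Other genes named were chosen after their values were seen. The members and lists were chosen with earlier results of these data known. All replicate pairs differed by more than sampling noise. Alternatives were RLE size factors, no filter on low counts, DESeq2 1.42.0, limma voom (limma 3.58.1), 2 groups only, a replicate block, a transcript length offset, protein-coding transcripts only, and libraries left out. The rest of chromosome 14 was taken as a comparison, and the window counted without overlapping or scarcely read genes, after the data were seen. Protein sequences were not analysed here.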

Additional observations from a re-analysis of the deposited data

How the results depend on the processing

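Over the 7 tested genes, 3 comparisons and 18 alternative settings gave 378 values, of which 344 kept the direction and side of the threshold, 18 no longer passed, 2 newly passed and 14 did not keep the sign of the main fit. The falls of NKX2-1, SFTA3, FOXA1, FOXA2 and HOPX in the BRG1 knockout, and the rises of NKX2-1, SFTA3 and ABCA3 in the BRM knockout, passed in all 18. The number of genes called higher in the BRM knockout ranged from 3 to 5 when single libraries were left out. It was 3 without parental replicate 2, without parental replicate 3, without BRM knockout replicate 1 and without BRM knockout replicate 3, since FOXA2 and HOPX were lost there. Beyond the losses given with FOXA2, HOPX and ABCA3 above, the HOPX rise in the BRM knockout was lost with no filter on low counts (log2 2.23, adjusted p = 0.12) and with DESeq2 (2.27, adjusted p = 0.078). The ABCA3 fall was lost with limma voom (-0.67, adjusted p = 0.086) and without parental replicate 1 and BRG1 knockout replicate 3 (-0.46, adjusted p = 0.12).

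All 14 values that did not keep the sign were in GATA6 in the BRM knockout, whose log2 difference of 0.02 lay at 0 within its error. It was -0.035 with RLE size factors and with DESeq2, -0.084 with no filter on low counts, -0.034 with the length offset, -0.06 with protein-coding transcripts only, -0.073 with 2 groups only, -0.019 with limma voom, and -0.128 without parental replicate 1 and BRG1 knockout replicate 3. With single libraries left out it ranged from -0.202 to 0.13. The cause was not tested. GATA6 newly passed without BRG1 knockout replicate 1, against parental cells and against the BRM knockout (-0.735, adjusted p = 0.036).

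With the replicate number as a block, 6 genes were lower in the BRG1 knockout and 5 were higher in the BRM knockout, and no call of the 7 genes changed. The block gave 0.0 for GATA6 in the BRM knockout, which is counted above among the values that did not keep their sign. Libraries of the same number deviated together with correlations from -0.079 to 0.175, so the numbers were not taken to pair the samples. Depth limits NKX2-1, SFTA3 and SFTPB, of which 2, 5 and 1 reads were left in the BRG1 knockout.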

Other observations

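Basal cell genes, which belong to another epithelial lineage of the airway, had the same order of groups as NKX2-1 in several members, chosen here after their values were seen. TP63, the master factor of basal and squamous cells, had 69.9, 31.8 and 37.7 CPM in the parental libraries, 1.96, 0.605 and 2.68 CPM in those of the BRG1 knockout and 258, 176 and 317 CPM in those of the BRM knockout. Its fall in the BRG1 knockout was 4.73 ± 0.52 in log2 units (edgeR adjusted p = 9.2e-05) and its rise in the BRM knockout 2.43 ± 0.45 (edgeR adjusted p = 0.0027). Of the 8 listed genes 6 were tested. In the BRG1 knockout 3 fell (TP63, KRT15 and S100A2) and 1 rose (KRT5), and in the BRM knockout 4 rose (TP63, KRT15, NGFR and S100A2) and none fell. Over all genes tested 21.9% fell and 21.6% rose in the BRG1 knockout, and 16.4% fell and 21.0% rose in the BRM knockout. KRT5, the basal keratin, had 9 reads in parental cells, 393 in the BRG1 knockout and 0 in the BRM knockout. It reached the filter on low counts only with the BRG1 knockout libraries, where it was high. Its call therefore does not stand evenly beside these shares.

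Genes of ciliated cells split. Of 10 listed, 9 were tested, with 3 lower and 2 higher in the BRG1 knockout, and 4 higher and 1 lower in the BRM knockout, to be read beside the same shares of all genes. RSPH1, among the 2 higher in the BRG1 knockout, reached the filter on low counts only with those libraries, where it was high. DNAH5, a heavy chain of axonemal dynein, had 16.8, 7.85 and 8.75 CPM in parental cells, 3.30, 3.29 and 4.01 CPM in the BRG1 knockout and 61.95, 72.3 and 107 CPM in the BRM knockout. The dynein intermediate chain gene DNAI1 had 2, 30 and 1 reads in the 3 groups. Among endothelial markers, 3 of 7 tested rose in the BRM knockout, where 21.0% of all genes did, among them KDR, a receptor of vascular endothelial growth factor, from 6.02, 3.94 and 3.70 CPM to 72.5, 43.7 and 53.4 CPM (log2 3.64 ± 0.28, edgeR adjusted p = 3.9e-05). TIE1, a receptor of endothelial cells, fell in both knockouts, from 168 reads to 11 and 6. It reached the filter on low counts only with the parental libraries, where it was high.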
